A study of Rattus norvegicus with 9 samples.

Results

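The genes described here belong to signalling by bone morphogenetic proteins (BMPs). They are the ligands Bmp2, Bmp4, Bmp6 and Bmp7, the receptors Bmpr1a and Bmpr2, the antagonist Grem1, and the target genes Id1, Id2 and Id3, 10 genes of 14217 that had a probe set of their own. A probe set, the group of short probes that reports 1 transcript, was taken where the platform annotation gave a listed gene as its only symbol, which left 16 probe sets of 31042. The brightest over all arrays stands for a gene. The samples were lung fibroblasts of rat pups at postnatal day 2, before septation, day 7, while septation was under way, and day 21, after its end. Septation is the growth of ridges that divide the air spaces of the newborn lung. There were 9 samples, 3 per day from 3 litters. A day 2 sample pooled 5 littermates, and a sample of a later day pooled 4. All were freshly isolated lung cells that had adhered to plastic after enzymatic dispersal, with no treatment named. Strain and sex are not given in the labels.

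BMPs are secreted dimers of the TGF-beta family. They bind a pair of type I and type II receptor kinases, among them the products of Bmpr1a and Bmpr2, which phosphorylate the transcription factors SMAD1, SMAD5 and SMAD9. These enter the nucleus with SMAD4 and switch on, among others, the ID genes, whose products bind E proteins and keep them off DNA. Gremlin 1 and other secreted antagonists hold the ligands away from their receptors. In the lung, BMP4 is known from mice as a signal of the embryonic airway tips, and mutations of BMPR2 cause heritable pulmonary arterial hypertension in people.

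Median log2 intensity was 5.24 to 5.66 per array, and the 25th percentile of all deposited values lay at log2 4.25, below which a probe set is said to be at the low end. All 10 genes were above it on average at every day. The 12 fibroblast markers were well expressed, with a mean of log2 9.82 to 10.53 per array. The 13 measured macrophage markers were too, at log2 7.89 to 10.68, so the isolates held other cells. In such bulk RNA, fewer cells of a type and less RNA per cell cannot be told apart. Changes are log2 differences, later minus earlier day, with the SE from limma, and p-values are two-sided and adjusted over all 31042 probe sets. The spread they rest on is that between pools from different litters, with 3 arrays per day. A gene is called at an adjusted p under 0.05. An exact permutation test of 3 arrays against 3 cannot go below p = 0.1, so whether the arrays overlap is given beside the limma values.

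Of the 10 genes, Id1 and Id3 were called higher at day 7 than at day 2, and Bmp4, Bmp7 and Grem1 were called lower at day 21 than at day 7. Between days 21 and 2, Bmp7 was lower and Bmp6 was higher. Neither receptor was called in any comparison, nor were Bmp2 and Id2. The largest change was that of Bmp7, 4.46-fold lower at day 21 than at day 7. Its day 21 mean of log2 4.61 was not far above the low end of 4.25, so the size of this fall is uncertain. An F test over the 3 days called 4 of the 10 genes, Bmp4 (adjusted p = 0.014), Bmp7 (0.000117), Id1 (0.0393) and Id3 (0.0207), against 38% of all genes.

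**Figure D1:**
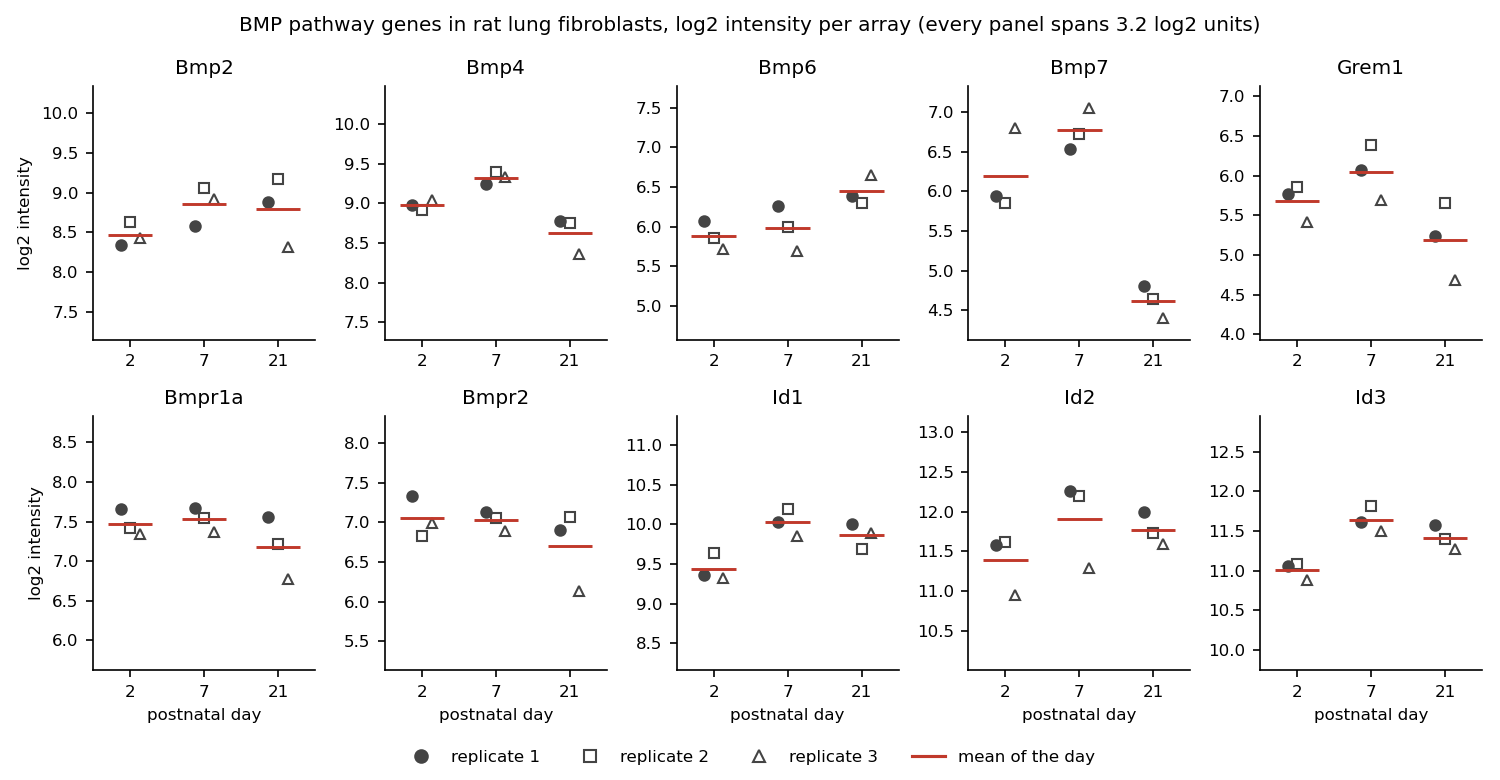
Log2 intensity (vertical axis) of the probe set that stands for each of the 10 genes on the 9 arrays, by postnatal day (horizontal axis). Symbols are replicates 1 to 3 of a day and red bars the means of the days. Bmp7 drops to log2 4.40 to 4.80 at day 21, while Id1 and Id3 at days 7 and 21 lie above all day 2 arrays.

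Among the ligands, Bmp7, which in mice is needed for kidney and eye development, changed most. It was at log2 5.94, 5.86 and 6.80 on the day 2 arrays, 6.54, 6.73 and 7.05 on the day 7 arrays, and 4.80, 4.64 and 4.40 on the day 21 arrays. Day 21 did not overlap with either earlier day, and day 2 replicate 3 lay within the range of day 7. Bmp7 fell by 2.16 ± 0.25 on the log2 scale at day 21 compared with day 7 (limma SE from 3 arrays a day, adjusted p = 4.22e-05). It was 3-fold lower at day 21 than at day 2 (log2 change -1.58 ± 0.25, adjusted p = 0.00107). The change at day 7 compared with day 2 was 0.57 ± 0.25 (adjusted p = 0.194), and it was 0.87 (adjusted p = 0.0325) without day 2 replicate 3, the highest array of its day. By order, day 7 and day 2 could not be told apart beyond their spread and day 21 was lowest.

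Bmp4, an inducer of ventral mesoderm and later a signal of many organ buds, had a narrow spread. Its levels were log2 8.98, 8.92 and 9.04 on day 2, 9.24, 9.40 and 9.33 on day 7, and 8.78, 8.75 and 8.36 on day 21. No array of any day overlapped with another day, day 7 being highest and day 21 lowest. At day 21 it was 1.62-fold lower than at day 7 (log2 change -0.69 ± 0.16, limma adjusted p = 0.00466), and the call held whichever array was left out (adjusted p 0.00663 to 0.0225). The values for day 7 against day 2 (0.34 ± 0.16, adjusted p = 0.224) and day 21 against day 2 (-0.35 ± 0.16, adjusted p = 0.14) did not pass. Day 7 exceeded the mean of days 2 and 21 by 0.52 ± 0.13 (adjusted p = 0.0144), which was lost when day 7 replicate 2 was left out (0.48, adjusted p = 0.0701) or arrays were centred on their medians (0.41, adjusted p = 0.108).

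Bmp6, a ligand best known in adults for setting hepcidin and so iron supply, was the only one of the 4 ligands to be called higher. The brightest of its 4 probe sets was at log2 6.07, 5.85 and 5.73 on day 2, 6.26, 5.99 and 5.70 on day 7, and 6.39, 6.31 and 6.65 on day 21. All day 21 arrays were above all others. Day 21 was 1.48-fold above day 2 (log2 change 0.57 ± 0.18, limma adjusted p = 0.0487), and day 21 against day 7 gave 0.46 ± 0.18 (adjusted p = 0.0755). The call at the threshold held without day 7 replicate 1 or 3 and was lost without any of the other 7 arrays (adjusted p 0.0537 to 0.159). None of the 3 dimmer probe sets of Bmp6 was called, with changes of 0.15, 0.18 and 0.29 between days 21 and 2 and arrays that overlap. The mean of the 4 probe sets gave 0.30 ± 0.19 (adjusted p = 0.308).

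Bmp2, a close relative of Bmp4 that drives bone and heart formation, was not called. It was at log2 8.34, 8.64 and 8.42 on day 2, 8.58, 9.06 and 8.92 on day 7, and 8.88, 9.17 and 8.31 on day 21. The days overlapped, and day 21 replicate 3 was below every other array. The change at day 7 compared with day 2 was 0.39 (95% interval -0.09 to 0.87), and at day 21 compared with day 7 it was -0.06 (95% interval -0.54 to 0.42). A second, dimmer Bmp2 probe set gave 0.54 ± 0.21 for day 21 against day 2 (adjusted p = 0.0949), where the brightest gave 0.32 ± 0.22 (adjusted p = 0.331).

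Grem1 encodes gremlin 1, an antagonist that binds BMP2, BMP4 and BMP7. Its levels were log2 5.78, 5.85 and 5.41 on day 2, 6.07, 6.38 and 5.70 on day 7, and 5.24, 5.65 and 4.68 on day 21. Day 21 lay below day 7 with no overlap, while day 2 overlapped with both. Grem1 was 1.82-fold lower at day 21 than at day 7 (log2 change -0.86 ± 0.25, limma adjusted p = 0.0214). Leaving out either of the day 7 replicates 1 and 2 raised the adjusted p above the threshold (0.0529 and 0.0902), as did leaving out day 21 replicate 3, the lowest array of Grem1 (-0.61, adjusted p = 0.0886). Day 7 against day 2 (0.37 ± 0.25, adjusted p = 0.459) and day 21 against day 2 (-0.49 ± 0.25, adjusted p = 0.2) did not pass. Grem1 and its ligands Bmp4 and Bmp7 were thus the 3 genes called lower at day 21 than at day 7.

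The promoters of Bmp4 and Grem1 are shown because this ligand and its antagonist were both lower at day 21. Promoters from RefSeq (build GRCr8) were found for 8 of the 10 genes. The 250 bases before the annotated start lie at chr15:22101934-22102183 for Bmp4 and chr3:120978320-120978569 for Grem1, both on the minus strand, and are printed 5′ to 3′ in the direction of the gene. Capitals mark exact matches on either strand to 4 motifs. These were GTCT, the core bound by SMADs, GGCGCC, a GC-rich SMAD site, TATAAA, the TATA box, and CCAAT, the CCAAT box, and no matches overlapped in the sequences printed.
Bmp4: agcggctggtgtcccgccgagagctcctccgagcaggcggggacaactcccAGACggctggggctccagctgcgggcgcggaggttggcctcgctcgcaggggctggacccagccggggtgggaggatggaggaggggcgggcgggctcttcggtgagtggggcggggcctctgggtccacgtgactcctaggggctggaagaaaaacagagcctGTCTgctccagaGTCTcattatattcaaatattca
Grem1: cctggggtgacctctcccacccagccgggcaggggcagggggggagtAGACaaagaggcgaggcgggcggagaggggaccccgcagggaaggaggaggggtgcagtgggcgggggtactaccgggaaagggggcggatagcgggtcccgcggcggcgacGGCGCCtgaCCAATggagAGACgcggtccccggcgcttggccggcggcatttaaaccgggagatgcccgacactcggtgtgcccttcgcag
Bmp4 held GTCT at 3 places and none of the other motifs. Grem1 held GTCT at 2 places and 1 GGCGCC that lay 3 bases upstream of 1 CCAAT. Of 33469 promoters of this length, 84% held GTCT, 8.69% GGCGCC, 12.9% TATAAA and 34% CCAAT, so a GTCT match is common. A match is only a stretch of letters and binding was not measured.

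Neither receptor gene changed by more than the spread of its arrays. Bmpr1a, the type I receptor kinase also called ALK3, was at log2 7.65, 7.42 and 7.35 on day 2, 7.67, 7.54 and 7.37 on day 7, and 7.56, 7.21 and 6.78 on day 21. The changes were 0.05 (95% interval -0.38 to 0.49) for day 7 against day 2 and -0.34 (95% interval -0.78 to 0.09) for day 21 against day 7. Bmpr2, the type II receptor kinase, had levels of 7.33, 6.83 and 6.99 on day 2, 7.13, 7.06 and 6.90 on day 7, and 6.90, 7.07 and 6.14 on day 21. Its changes were -0.03 (95% interval -0.53 to 0.48) and -0.32 (95% interval -0.83 to 0.18) in the same comparisons. For both, the days overlapped and day 21 replicate 3 was lowest. A second Bmpr2 probe set near the low end was not called either, at means of log2 4.56, 4.68 and 4.64 on days 2, 7 and 21.

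The ID genes encode helix-loop-helix proteins without a DNA-binding region. Id3 was at log2 11.07, 11.09 and 10.88 on day 2, 11.61, 11.81 and 11.50 on day 7, and 11.57, 11.40 and 11.27 on day 21. Every array of days 7 and 21 was above every array of day 2. Id3 was 1.55-fold higher at day 7 than at day 2 (log2 change 0.63 ± 0.15, limma adjusted p = 0.025), and day 21 against day 2 gave 0.40 ± 0.15 (adjusted p = 0.0899). It also exceeded the mean of days 2 and 21 at day 7, by 0.43 ± 0.13 (adjusted p = 0.0342), a call that held only when day 2 replicate 1, day 7 replicate 3 or day 21 replicate 1 was the array omitted (adjusted p up to 0.175 otherwise).

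Id1 had the same order of day means. Its levels were log2 9.36, 9.64 and 9.33 on day 2, 10.03, 10.20 and 9.85 on day 7, and 10.01, 9.69 and 9.89 on day 21, again with day 2 below all others. Day 7 was 1.5-fold above day 2 (0.58 ± 0.16, limma adjusted p = 0.0461), and day 21 against day 2 gave 0.42 ± 0.16 (adjusted p = 0.0967). For day 21 against day 7 neither gene passed, with -0.17 ± 0.16 for Id1 and -0.23 ± 0.15 for Id3. The day 7 calls sat close to the threshold. Id1 kept its call only without day 7 replicate 3 (adjusted p = 0.0479) and Id3 only without that array or 1 of the day 21 arrays, with adjusted p up to 0.169 for Id1 and 0.107 for Id3 over the 9 omissions. With each array centred on its median, the changes were 0.49 (adjusted p = 0.209) for Id1 and 0.54 (adjusted p = 0.123) for Id3.

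Id2, which in mice is needed for innate lymphoid cells and marks lung bud tips, was not called. Its brightest probe set was at log2 11.58, 11.62 and 10.95 on day 2, 12.25, 12.19 and 11.29 on day 7, and 12.00, 11.73 and 11.59 on day 21. Replicate 3 was the lowest array of each day, by the most at day 7, and the days overlapped. The change at day 7 compared with day 2 was 0.53 (95% interval -0.06 to 1.11). A second Id2 probe set pointed the other way, at -0.20 ± 0.30 (adjusted p = 0.779), so no direction is given for Id2.

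The promoters of the 3 ID genes are shown because Id1 and Id3 were called together at day 7. They lie at chr3:161671314-161671563 on the plus strand for Id1, chr6:47470996-47471245 on the minus strand for Id2 and chr5:153656041-153656290 on the plus strand for Id3 (GRCr8, RefSeq), with the same motifs in capitals.
Id1: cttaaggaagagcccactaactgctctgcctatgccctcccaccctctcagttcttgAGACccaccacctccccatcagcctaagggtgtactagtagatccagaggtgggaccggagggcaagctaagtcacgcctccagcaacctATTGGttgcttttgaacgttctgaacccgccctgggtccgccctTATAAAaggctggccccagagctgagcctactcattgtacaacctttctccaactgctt
Id2: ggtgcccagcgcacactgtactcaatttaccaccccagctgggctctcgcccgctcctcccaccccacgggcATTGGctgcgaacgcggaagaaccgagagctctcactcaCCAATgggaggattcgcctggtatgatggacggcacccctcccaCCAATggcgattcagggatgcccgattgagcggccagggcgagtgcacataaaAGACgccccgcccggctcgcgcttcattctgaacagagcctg
Id3: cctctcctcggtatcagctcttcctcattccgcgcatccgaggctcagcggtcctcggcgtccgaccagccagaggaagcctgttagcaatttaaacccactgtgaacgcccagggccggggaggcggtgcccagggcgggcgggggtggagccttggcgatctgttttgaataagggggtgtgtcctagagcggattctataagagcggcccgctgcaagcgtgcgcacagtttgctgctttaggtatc
Id1 held 1 TATAAA, starting 59 bases before the start, and 1 CCAAT and 1 GTCT, both on the opposite strand. Id2 held 3 CCAAT and 1 GTCT, and Id3 held none of the 4 motifs. The BMP response element of Id1 known from mice lies further upstream than this window.

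**Figure D2:**
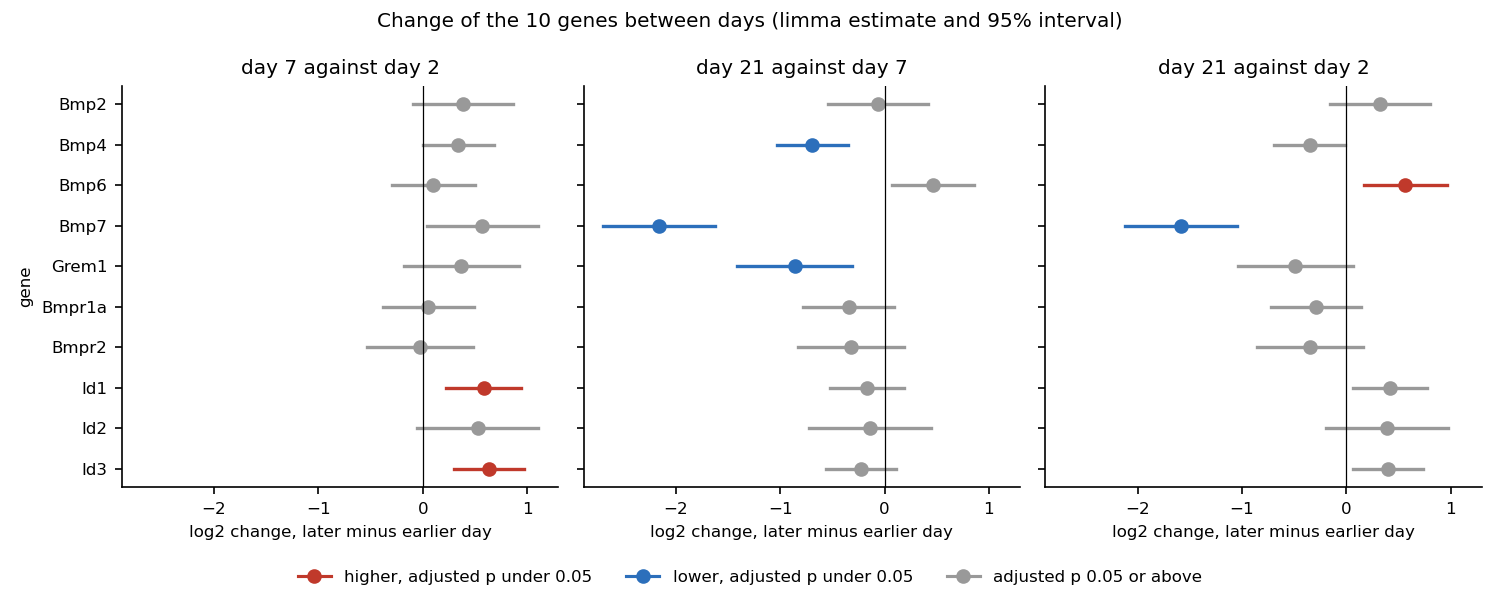
Log2 change, later minus earlier day (horizontal axis), of the 10 genes in the 3 comparisons of days, with 95% intervals from limma. Colour gives the call at an adjusted p under 0.05. The 2 rises at day 7 are Id1 and Id3, and the 3 falls at day 21 compared with day 7 are Bmp4, Bmp7 and Grem1.

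The counts among the 10 genes are set beside those of all genes. For day 7 against day 2, limma called 2 of the 10 higher and 0 lower (unadjusted p under 0.05 for 4 and 0), while 7.02% of all genes were called higher and 4.41% lower by the same test. Their median change was 0.38, and that of all genes was 0.07. For day 21 against day 7, 0 were called higher and 3 lower (1 and 3 at an unadjusted p under 0.05), while 13.7% of all genes were higher and 24.4% lower, and the medians were -0.28 for the 10 genes and -0.01 for all. Between days 21 and 2, 1 was higher and 1 lower, against 8.8% and 15.3% of all genes, with medians of 0.02 and 0.02. In these comparisons, in that order, 3, 4 and 5 of the 10 genes had no overlap of arrays between the days, as did 33%, 51.2% and 43% of all genes. Day 7 against the mean of days 2 and 21 called 3 genes higher, Bmp4, Bmp7 and Id3, and 0 lower (5 and 0 at an unadjusted p under 0.05), against 20.6% and 9.93% of all genes. Centring each array on its median moved every change by -0.10 for day 7 against day 2 and by 0.11 for day 21 against day 7.

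Where a gene had several probe sets, they did not all show the same course. The day 21 values of Bmp6 ranged from log2 4.97 to 6.54 on its second brightest probe set and from 6.31 to 6.65 on the brightest. In Id2 the day 7 mean was above that of day 2 on one probe set and below it on the other. For Bmp2 both probe sets had their highest day mean after day 2, at day 7 on the brightest and at day 21 on the dimmer one. Bmp4, Bmp7, Bmpr1a, Grem1, Id1 and Id3 had 1 probe set each, so no such check was possible for 5 of the 6 genes called.

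**Figure D3:**
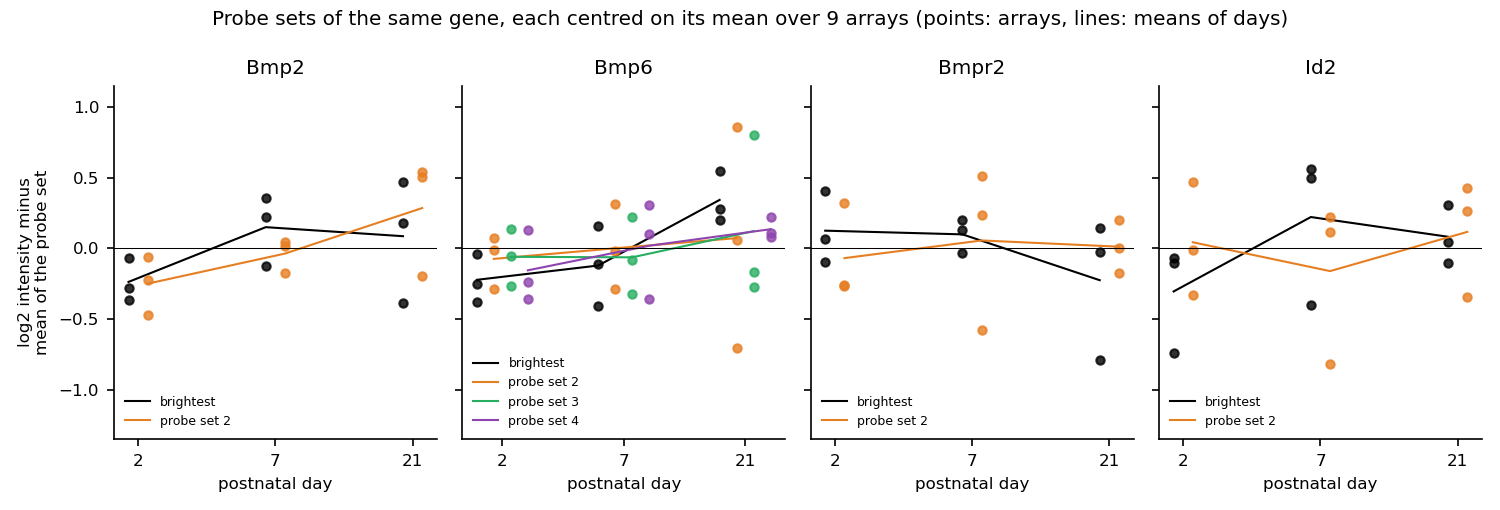
Log2 intensity minus the mean of the probe set over 9 arrays (vertical axis), by postnatal day, for the genes with several probe sets. Points are arrays, lines join the means of days, and black is the brightest probe set. The day 7 means of the Id2 probe sets lie on opposite sides of 0, and the day 21 points of 2 of the dimmer Bmp6 probe sets spread most.

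The other genes of the pathway were followed in 6 lists, in which Smad6, Smad7 and Bambi stand in 2 lists each. Of 12 measured target genes besides Id1, Id2 and Id3, 5 rose at day 7 compared with day 2, 0 fell and 7 did not pass, beside 7.02% of all genes higher and 4.41% lower. The median change was 0.52, against 0.07 for all genes. Among those that did not pass, Msx1 (log2 change -0.0019) and Dlx5 (-0.21), homeobox genes, were not above day 2. At an unadjusted p under 0.05, 8 were higher and 0 lower. The largest rises were those of Tmem100, a membrane protein induced by BMP9 in endothelium (1.07 ± 0.25, limma adjusted p = 0.0235), and Atoh8, a helix-loop-helix factor (1.06 ± 0.21, adjusted p = 0.00928). Hey1, a repressor downstream of Notch as well as BMP, rose by 0.91 ± 0.18 (adjusted p = 0.0102). Smad6, which inhibits the pathway that induces it, rose by 0.76 ± 0.19 (adjusted p = 0.0247). Leaving out day 2 replicate 3 (0.78, adjusted p = 0.0757) or day 7 replicates 1 or 2 (adjusted p 0.0726 to 0.086) ended the call of Tmem100. Smad6 lost its call without any day 2 array or without day 7 replicate 1 or 2 (adjusted p 0.054 to 0.104).

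Of the 11 SMADs and intracellular regulators, 2 rose at day 7 and 0 fell (6 and 0 at an unadjusted p under 0.05), with a median change of 0.45, beside the same shares of all genes. They were Smad6, already counted among the targets, and Smad9, a SMAD that BMP receptors phosphorylate (0.89 ± 0.24, adjusted p = 0.0385). Smad9 was at log2 6.36, 6.36 and 6.23 on day 7, against 5.61, 5.58 and 5.08 on day 2, and its call was lost on leaving out any array of these days (adjusted p 0.0525 to 0.139). None of the 6 other ligands, 9 other receptors and co-receptors, 14 other antagonists and modulators or 3 E proteins was called by limma in that comparison. In that order, 3, 1, 3 and 0 of them had means below the low end at days 2 and 7, where a change is hard to see. At an unadjusted p under 0.05, 1, 1, 1 and 1 of these lists' genes were higher, and 0, 0, 2 and 0 lower.

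At day 21 compared with day 7, 24.4% of all genes were called lower and 13.7% higher, and the counts of the lists below stand beside those shares. With the mean of the macrophage or the endothelial markers as a covariate, each pathway gene named for this comparison lost its call. So did those named for day 7 against day 2. In either list mean, day 7 did not overlap with the other days (macrophage, log2 7.89 to 8.75 on day 7 and 10.00 to 10.68 on day 21). The covariates thus track the day, and a lost call does not tell cell mix and day apart. Of the 9 other receptors and co-receptors, 4 fell and 0 rose (0 higher at an unadjusted p under 0.05), with a median of -0.47. Neo1, a receptor for repulsive guidance molecules and netrins, fell most of these (-1.64 ± 0.23, limma adjusted p = 0.000191). With the macrophage covariate its change was -0.09 (adjusted p = 0.95). For this comparison, the covariate value given for a single pathway gene is the highest among that gene's recomputed fits, array omissions aside. For the other covariate only the lost call is given. Some named genes kept more of their change. Over the fits other than array omissions, both covariates included, Tmem100 lay at -3.51 to -2.67 and Hey1 at -1.71 to -1.42. Acvrl1, the type I receptor ALK1 that BMP9 engages in endothelium, was at log2 7.12, 7.40 and 7.04 on day 21, against 8.70, 8.69 and 8.49 on day 7 (-1.44 ± 0.16, adjusted p = 4.13e-05). The type I receptor gene Acvr1 (-0.78) and the type II receptor gene Acvr2a (-0.60) also fell, Acvr2a not after centring on array medians (-0.49, adjusted p = 0.068). With the macrophage covariate Acvr1 came to 0.0267 (adjusted p = 0.986). Of 11 other ligands listed, 6 were measured, and Gdf2 and Bmp10 were not among them. The means of 3 of the 6 were below the low end at every day. Of the 6 other ligands, 2 fell, Bmp5 (-1.20 ± 0.31, adjusted p = 0.012) and Gdf10 (-0.70 ± 0.18, adjusted p = 0.0108), and 0 rose, also at an unadjusted p under 0.05. The day 21 mean of Gdf10, log2 4.37, lay close to the low end, so the size of its fall is uncertain. Without day 21 replicate 3, Bmp5 missed the threshold (-0.91, adjusted p = 0.0533), and with the macrophage covariate it came to 0.19 (adjusted p = 0.946).

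The antagonists and extracellular modulators moved both ways at day 21, with 3 of 14 higher than at day 7 and 5 lower (median 0.05). Bmper, a secreted protein that binds BMPs and can dampen or aid their action, was at log2 5.34, 5.56 and 5.38 on day 21, against 8.65, 8.35 and 8.39 on day 7. It was 8.21-fold lower (-3.04 ± 0.21, limma adjusted p = 1.38e-06). Fstl1, a secreted follistatin-like protein that binds BMP4 and is needed for lung development in mice, fell by 1.30 ± 0.17. Nog, which encodes the BMP antagonist noggin, rose, at log2 6.93, 7.43 and 6.72 on day 21, against 6.10, 6.17 and 5.77 on day 7 (1.01 ± 0.19, adjusted p = 0.00167). Fstl3, a follistatin-like inhibitor of activins, rose by 1.17 ± 0.15. The direction of Nog and Fstl3 was opposite to that of Grem1, and days 21 and 7 did not overlap for any of the 3. The other gene that rose, Chrdl1, was at the low end on all days.

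Inside the cell, 4 of 11 SMADs and regulators fell at day 21 compared with day 7 and 1 rose. All 3 SMADs that BMP receptors phosphorylate were lower, Smad5 (-1.30 ± 0.25, limma adjusted p = 0.00174), Smad9 (-1.15 ± 0.24, adjusted p = 0.00281) and Smad1 (-1.11 ± 0.21, adjusted p = 0.00181). Smad1 came to 0.0749 (adjusted p = 0.965) with the macrophage covariate, and Smad9 to -0.0015 (adjusted p = 1) with the endothelial one. Tob1, an antiproliferative protein that can bind SMADs, rose (0.72 ± 0.18, adjusted p = 0.0103). Of the 12 other target genes 4 fell and 0 rose (2 higher at an unadjusted p under 0.05), with a median of -0.06. Tmem100 fell 11.1-fold (-3.48 ± 0.25, adjusted p = 2.03e-06), to log2 4.40, 4.31 and 3.82 on day 21, against 7.90, 7.70 and 7.36 on day 7, the day 21 mean lying below the low end, so that the size of the fall is uncertain. Hey1 (-1.71 ± 0.18), Atoh8 (-1.37 ± 0.21) and Hes1, a Notch target that BMPs can also induce (-0.75 ± 0.16), were the others.

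The E proteins, the partners that ID proteins bind, were lower at day 21 than at day 7 in 3 of 3 cases and 0 were higher, also at an unadjusted p under 0.05. Tcf12 was at log2 8.06, 8.39 and 8.34 on day 21, against 9.89, 9.62 and 9.75 on day 7 (-1.49 ± 0.18, limma adjusted p = 6.92e-05). Tcf3 fell by 1.10 ± 0.20 (adjusted p = 0.00103) and Tcf4 by 0.71 ± 0.20 (adjusted p = 0.0183). Without day 21 replicate 3, Tcf4 missed the threshold (-0.47, adjusted p = 0.0575). The day 21 mean of Tcf3, log2 4.28, lay close to the low end, so the size of its fall is uncertain. With the macrophage covariate Tcf4 came to 0.0387 (adjusted p = 0.983). Whether these changes differ from those of Id1 and Id3 was not tested.

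Between days 21 and 2, members of the lists were called in both directions. Smad7, an inhibitory SMAD (1.19 ± 0.23, limma adjusted p = 0.00449), Tob1 (1.17 ± 0.18, adjusted p = 0.00117) and Nog (1.10 ± 0.19, adjusted p = 0.00228) were higher. Bmper (-2.41 ± 0.21), Tmem100 (-2.41 ± 0.25), Neo1 (-1.31 ± 0.23) and Sostdc1, a secreted antagonist of BMP and Wnt signals (-1.15 ± 0.16, adjusted p = 0.000549), were lower. The day 21 means of Tmem100 (log2 4.18) and Sostdc1 (log2 3.83) were below the low end, so the sizes of these falls are uncertain. By list, 0 of 3 E proteins were higher and 3 lower and 0 of 6 other ligands were higher and 1 lower. In both, 0 were higher at an unadjusted p under 0.05 by limma. Of the calls counted here and below, those of Tcf4 (limma adjusted p = 0.0497), Bambi (0.0471) and Smad1 (0.0419) held in only 1, 1 and 3 of 9 array omissions. Further, 0 of 9 other receptors were higher (1 at an unadjusted p under 0.05) and 3 lower, 3 of 11 SMADs and regulators were higher and 1 lower, 2 of 12 other targets were higher and 2 lower, and 3 of 14 antagonists and modulators were higher and 3 lower, while 8.8% of all genes were higher and 15.3% lower. With the endothelial covariate, Bmper (-2.59, adjusted p = 0.027) and Nog (1.77, adjusted p = 0.042) kept their calls and the other genes named here lost theirs. The endothelial means of days 2 and 21 did not overlap, so that covariate tracks the day. Smad7, Tob1, Tmem100, Neo1 and Sostdc1 each kept their calls in the other 18 of 19 recomputed fits, among them that with the macrophage covariate.

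**Figure D4:**
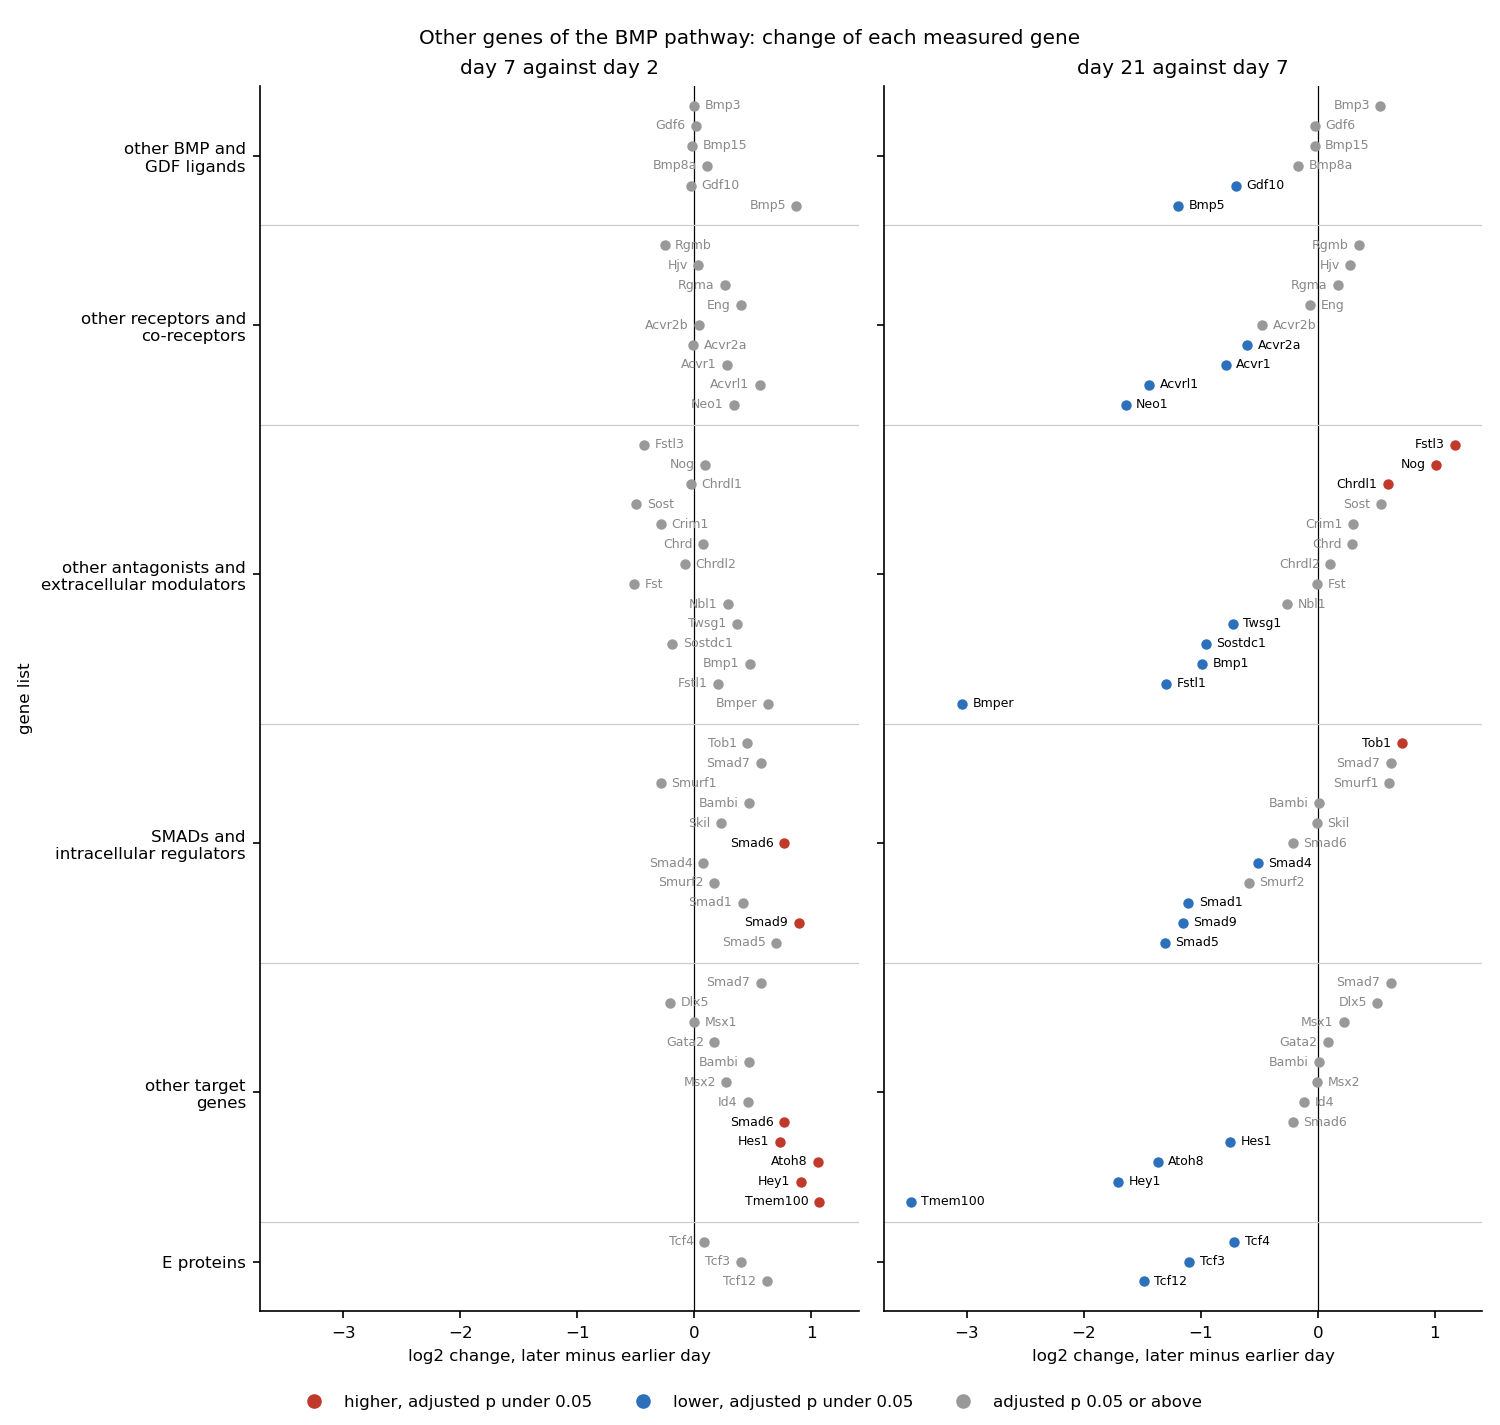
Log2 change, later minus earlier day (horizontal axis), of every measured gene in 6 lists of the BMP pathway besides the 10 genes above. Black names with red or blue points passed an adjusted p under 0.05 and grey ones did not. At day 7, 5 target genes rose. At day 21 compared with day 7, all 3 E proteins and 4 receptors or co-receptors fell, while Nog, Fstl3 and Chrdl1 rose.

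Markers of other cells moved between the same days. Their counts stand beside 7.02% of all genes called higher and 4.41% lower at day 7 compared with day 2. At day 21 compared with day 7 these shares were 13.7% and 24.4%. Of 11 measured endothelial markers, of a cell type known for high expression of BMP receptors and ID genes, 2 rose and 0 fell at day 7 compared with day 2, and 0 rose and 9 fell at day 21 compared with day 7. By their means, 0 of them were below the low end at days 2 and 7 and 1 was at day 21. Their summed intensity was 921 to 1180 on the day 2 arrays, 1346 to 1610 on day 7 and 590 to 797 on day 21. Of 13 macrophage markers, 10 fell and 0 rose at day 7 and 13 rose and 0 fell at day 21 compared with day 7, with sums of 21519 to 24511, 7343 to 11504 and 22599 to 32838 on days 2, 7 and 21. Of 7 cartilage markers, 4 fell at day 7 and 5 rose at day 21, and of 9 mast cell and granulocyte markers 3 fell at day 7 and 6 rose at day 21. Of 10 proliferation genes 2 rose at day 7 and 9 fell at day 21. Early response genes, which cell handling can induce, rose in 4 of 11 cases at day 7 and fell in 0, where Id1 and Id3 rose too. Id1 and Id3 were not called at day 21 compared with day 7, where 2 early response genes rose and 1 fell. Their list mean was log2 10.93 to 10.98 on day 2, 11.37 to 11.55 on day 7 and 11.41 to 11.67 on day 21. Their part in the result, and that of cartilage, mast cell and proliferation genes, was not tested.

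With the mean of the endothelial list as a covariate, the changes at day 7 compared with day 2 were 0.62 ± 0.28 for Id1 and 0.65 ± 0.26 for Id3, and at day 21 compared with day 7 they were -2.16 ± 0.84 for Bmp7, -0.55 ± 0.53 for Bmp4 and 0.32 ± 0.77 for Grem1. Limma called 0 of the 10 genes with it in any comparison, with 1 or 2 per comparison at an unadjusted p under 0.05. With the macrophage mean, the day 7 changes were 1.10 ± 0.39 for Id1 and 0.76 ± 0.40 for Id3, and those at day 21 compared with day 7 were -1.41 ± 0.69 for Bmp7, -0.31 ± 0.42 for Bmp4 and -0.73 ± 0.75 for Grem1. Again none of these was called, while Bmp7 at day 21 compared with day 2 kept its call (-1.51 ± 0.25, limma adjusted p = 0.00251). Day 7 did not overlap with days 2 or 21 in either list mean, nor did days 2 and 21 in the endothelial one. There the covariate tracks the day, so a lost call does not tell cell mix and day apart. 

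**Figure D5:**
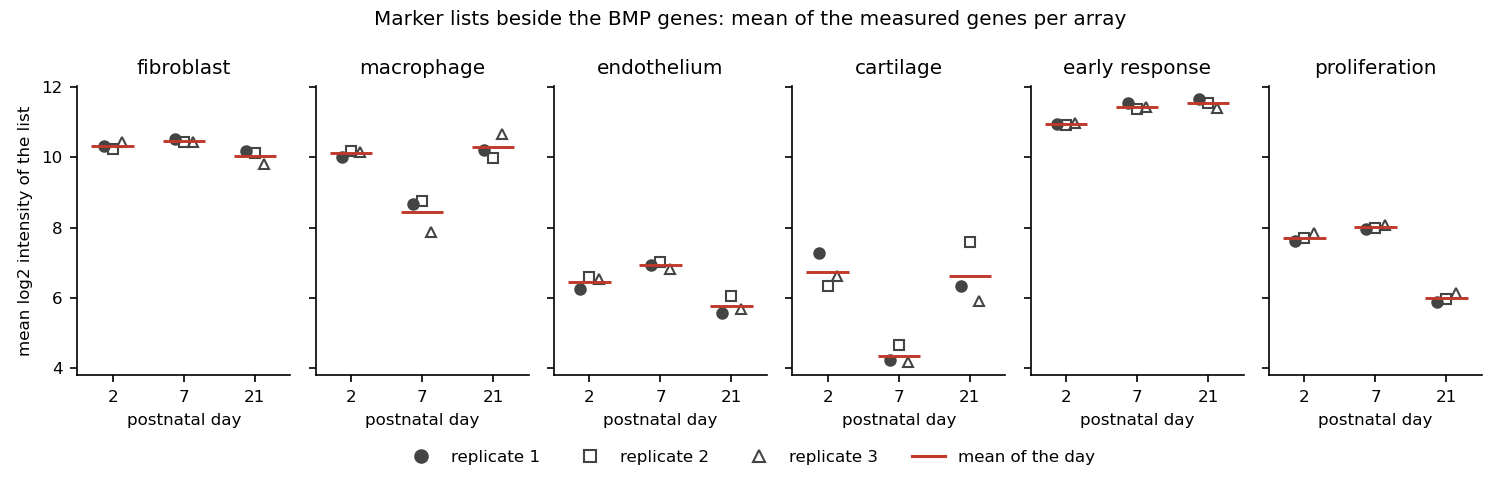
Mean log2 intensity (vertical axis) of 6 marker lists on each array, by postnatal day, with symbols for replicates and red bars for the means of days. The macrophage and cartilage lists dip at day 7, the endothelial and proliferation lists are lowest at day 21, and the early response list is lowest at day 2.

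The genes with the most similar course over the 9 arrays were sought among 13970 other genes, by the root mean square difference after centring each gene on its mean. For Bmp7 they were Tmem119, a membrane protein of bone-forming cells and microglia (0.14 log2 units), Ttyh3 (0.16) and Emilin1, an elastic fibre protein (0.17), beside an SD of Bmp7 itself of 1.02. Bmp4 was closest to Ift46, Zranb2 and Tsc22d1 (0.08 to 0.09, SD of Bmp4 0.33). For Grem1 the nearest were Tp53i11, Rbm24 and Abhd17c (0.15 to 0.17, SD 0.49). Id1 and Id3 shared Plau, the urokinase plasminogen activator, among their nearest 3 (0.13 and 0.12, SD 0.30 for both). The others were Marchf2 and Tcta for Id1, and Nedd9 and Gbx2, a factor at the low end here, for Id3. Bmp6 was closest to Pspn, Slc27a4 and C1qtnf12 (0.07 to 0.08, SD 0.32). These are descriptions over arrays that share the 3 days, with no test.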

How the data were processed

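Each of the 9 samples was measured on its own single-colour Affymetrix array from biotin-labelled cRNA, per the labels' protocols. The deposited values are RMA intensity per probe set, computed by the authors in affy, per the submitters' processing notes (no version given). RMA compresses changes of dim probe sets. The values were on a linear scale, so log2 was taken.

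After removal of 57 AFFX controls, 31042 probe sets were tested with limma 3.58.1 in R 4.3.3 (mean per day over all 9 arrays, 6 residual and 5.69 prior degrees of freedom, Benjamini-Hochberg adjustment). Probe sets with several symbols were not used. All 10 symbols matched RefSeq through Entrez numbers. The array's build is not given, so gene coordinates are not given, and promoter coordinates are those of RefSeq's GRCr8 table. The procedure was tested on simulated data. No columns of other series were present.

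Members and lists were chosen with earlier results of these data known. Named pathway genes are up to 4 called genes per list and comparison with the largest change, and Chrdl1 in a caption was singled out after its value was seen. Alternatives covered omitted arrays, litter number as a block, normalization, low values, log2(value + 16), variance model, array weights, covariates and the probe set used. Deviations of arrays with the same litter number correlated at r above 0.1 in 2 of 9 pairs. Between days 2 and 7, r was 0.41, 0.08 and 0.22 for equal numbers and -0.28 to 0.06 for unequal ones. With day 21, equal numbers gave -0.24 to 0.05. The labels do not state whether a number marks the same litter at all days, and this was not tested. The main fit pairs no samples.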

Additional observations from a re-analysis of the deposited data

How the results depend on the processing

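Of the 10 changes called among the 10 genes and 4 comparisons, 197 recomputed values gave 139 on the same side of the threshold in the same direction, 57 that missed it and 1 of opposite sign, Grem1 at day 21 compared with day 7 with the endothelial covariate (0.32). Of 30 changes not called, 593 values gave 15 calls. Bmp7 at day 21 compared with either earlier day and Bmp4 at day 21 compared with day 7 kept their calls in every fit without a covariate. Counts of the 10 members called are given for day 7 against day 2, day 21 against day 7, day 21 against day 2, and day 7 against the mean of days 2 and 21, where they were 2, 3, 2 and 3. Omitting 1 array gave 0 to 2, 2 to 3, 1 to 2 and 1 to 5 members by limma, with 2 to 5 at an unadjusted p under 0.05 in the first. Probe sets called, 2775, 9339, 5891 and 7302 with all arrays, were then 1523 to 2969, 8015 to 9364, 3955 to 6555 and 5748 to 7078. The number of arrays limits precision, and a fit with 1 array fewer also has fewer degrees of freedom.

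With litter number as a replicate block, 1 member was called for day 7 against day 2 (Id1 lost, adjusted p = 0.068) and 1 for day 21 against day 2 (Bmp6 lost, adjusted p = 0.0586), the block making Grem1 pass for day 7 against the mean (adjusted p = 0.00892). It changed no other call of the 10 genes, and among named pathway genes that of Bambi (adjusted p = 0.0525). Arrays matched their own number best in 8 of 18 cases, each a choice among the 3 arrays of another day. Array medians as centres left 0 members for day 7 against day 2 (2 at an unadjusted p under 0.05 by limma) and 1 for day 7 against the mean. The share of called probe sets that were higher was 61.5% as deposited and 41.5% centred for day 7 against day 2. It was 36.6% and 48% for day 21 against day 7, and 66.4% and 53.2% for day 7 against the mean. For day 21 against day 2 it was 36% and 39.6%, and 47.3% after a further quantile normalization. Array weights gave 4580 probe sets for day 7 against day 2 and 5 members for day 7 against the mean. Fitting the arrays of the days compared alone called 1 member for day 7 against day 2, and the mean of all probe sets of a gene called 1 for day 21 against day 2.

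With the macrophage covariate limma called 0 probe sets for day 7 against day 2 (3762 at an unadjusted p under 0.05), 90 for day 21 against day 7 and 0 for day 7 against the mean (3539), and 0, 0, 1 and 0 members (2, 0, 4 and 1 unadjusted). With the endothelial covariate 123, 204, 430 and 115 probe sets were called and 0 members in each comparison (2, 1, 1 and 1 unadjusted). The macrophage covariate turned the day 21 against day 7 values of Tcf4 (0.0387), Bmp5 (0.19), Acvr1 (0.0267) and Smad1 (0.0749) positive, with adjusted p 0.946 to 0.986. Both list means track the days, so calls lost with them do not tell cell mix and day apart, and the causes were not tested.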

Other observations

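Replicates of a day did not contribute evenly to the lowest values. Day 21 replicate 3 was the lowest array of its day for 8 of the 10 genes, while it was lowest for 36.4% of all probe sets. Day 7 replicate 3 was lowest for 7 of the 10, against 49% of all probe sets, and day 2 replicate 3 for 6, against 40.5%. Without day 21 replicate 3 the day 21 against day 7 values were -2.05 for Bmp7, -0.56 for Bmp4 and -0.61 for Grem1, and the first 2 kept their calls. The within-day SD of Id3 (log2 0.14) and Bmp4 (0.15) lay at the 14.5th and 16.1st percentile of all probe sets, and that of Id2 (0.40) and Grem1 (0.37) at the 90.6th and 87.3rd. Vwf, the endothelial clotting factor gene, was higher at day 21 than at day 2 (log2 change 1.08, limma adjusted p = 0.00882), while 5 of the other endothelial markers, Emcn, Cldn5, Flt1, Ramp2 and Tek, were lower (-0.65 to -1.56), Emcn to a day 21 mean of log2 4.23, below the low end.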
